A study of Mus musculus with 8 samples.

Results

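The 37 genes described here encode proteins of the sarcomere, the contractile unit of striated muscle, and of the Z-disc that bounds it, together with factors needed to assemble it. They were chosen by gene symbol from a list of names. All 37 were found among the 53465 genes of the deposited table, and 35 of them passed the filter on low counts that left 14451 genes for testing. By role, 11 were thick filament, M-band or titin genes, 10 were thin filament genes, 13 were Z-disc and associated genes and 3 were assembly or kinase genes. Polyadenylated RNA of mouse heart ventricles at embryonic day 9.5 was sequenced in 4 wild-type samples (WT) and in 4 samples of the genotype Nrg-1flox;Tie2-Cre (KO). *Nrg1* encodes neuregulin 1, a growth factor made in the endocardium and received by ErbB receptors of the myocardium. Tie2-Cre recombines floxed alleles in endothelial cells, the endocardium included, and in blood cells derived from them. Cardiomyocytes, which express nearly all of these 37 genes, were therefore not the cells targeted. The labels do not give the strain, the number of embryos in a sample, or whether the WT embryos carried a floxed allele or the Cre. They do not say that the samples came from separate litters either, so p-values measure the spread between these samples alone.

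In the sarcomere, thick filaments of myosin pull on thin filaments of actin, and troponin with tropomyosin makes this pull depend on calcium. Titin spans from the Z-disc, where alpha-actinin crosslinks the thin filaments, to the M-band, where myomesin holds the thick filaments together. The embryonic heart uses a mixture of isoforms, among them skeletal and smooth muscle actins, slow skeletal troponin I and atrial light chains, many of which become restricted to 1 muscle or chamber later in development.

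Total counts lay between 11852372 and 14360323 per sample. *Nrg1*, the targeted gene, had counts of 61, 59, 71 and 72 in KO 1 to KO 4 and 156, 131, 121 and 173 in WT 1 to WT 4, and fell by 1.07 on the log2 scale (standard error 0.14, adjusted p = 0.00268, edgeR quasi-likelihood test with Benjamini-Hochberg adjustment). Every adjusted p of a gene below comes from that test. KO 1 stood apart from the other KO samples. Its counts differed from theirs by 28.5 to 48.6 times the sampling variance (chi-square over degrees of freedom), whereas the other pairs within a genotype lay between 3.62 and 13.5. Hemoglobin genes took 6.26% of its counts, 1.93%, 3.8% and 3.89% of those of KO 2 to KO 4, and 0.671% to 0.799% of those of WT. Fold changes of the listed genes that moved by more than 1.5 times without KO 1 are therefore given with and without it.

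Marker genes of other cells were read beside the sarcomere genes. The 12 cardiomyocyte markers (such as *Ryr2*, the calcium release channel) are not among the 37 genes, although 2 of them, *Hspb7* and *Smpx*, are also counted with the further Z-disc genes below. They summed to 4740 to 5370 CPM (counts scaled to a common library size) in KO and 4850 to 5380 in WT. KO 1 was inside the WT range at 5090, of which *Atp2a2* gave 2470, and it lay below every WT sample for *Pln*, *Smpx*, *Popdc2* and *Cacna1c*. Of the 12 genes 0 passed in edgeR, with 4 at an unadjusted p under 0.05, and without KO 1 there were 3 that fell (*Slc8a1*, *Cacna1c* and *Popdc2*) and 1 that rose (*Hspb7*). For comparison with this list and those below, 3.50% of all genes fell and 5.11% rose with all samples. Without KO 1 these shares were 7.89% and 9.35%. At an unadjusted p under 0.05, 11.9% of all genes were lower and 13.1% higher. Blood differed: the 10 erythroid markers summed to 19900 to 69100 CPM in KO and 6730 to 8160 in WT, and all 10 rose. Markers of skeletal muscle and paraxial mesoderm were near 0, at 0.935 to 2.88 CPM in KO and 1.35 to 2.87 in WT, with *Myod1* and *Myf5* at 0 in all 8 samples. Smooth muscle markers summed to 1380 to 1550 CPM in KO and 1200 to 1320 in WT, with 1 of 8 higher and 1 lower. Outflow markers summed to 141 to 188 CPM in KO and 223 to 255 in WT, with 4 of 8 lower, and atrial markers to 195 to 323 and 283 to 300, with 1 of 6 tested lower. The sums over the outflow, erythroid, smooth muscle, endothelial and macrophage lists did not overlap between genotypes. Those over the atrial, epicardial, cardiomyocyte and skeletal muscle lists did. Endothelial markers summed to 892 to 978 CPM in KO and 1030 to 1110 in WT, with 1 of 10 lower, and 3 of 10 (*Tek*, *Kdr* and *Flt1*) without KO 1. Epicardial markers summed to 771 to 999 CPM in KO and 705 to 860 in WT, with 2 of 7 higher, and 3 of 7 without KO 1. The counts called in the other lists were the same without KO 1. Macrophage markers summed to 8.06 to 13.7 CPM in KO and 5.27 to 6.08 in WT, with 1 of 2 tested higher. The part of the blood, outflow and other markers in the results below was not tested. In whole ventricles, fewer cells of a type and less RNA per cell cannot be told apart.

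Short promoter sequences show what some of these genes share beyond their role. RefSeq windows from 250 bases before to 50 bases after an annotated start (GRCm38.p6) were found for 34 of the 37 genes, 46 windows in all, with none for *Tcap*, *Myom2* and *Xirp1*. A CArG box, the element bound by serum response factor, was in 8 of the 46 windows (17.4%) and in 1.63% of the 32851 windows of all genes. The sites before the start of 7 genes are shown, among them the actin genes *Acta1* and *Actc1*. The window of the smooth muscle actin gene *Acta2* held no box, nor did the windows at the other starts of *Nebl*. Each stretch is 30 bases on the strand of the gene, 5′ to 3′, with the box in capitals.
*Acta1*, chr8:123894829-123894858, minus strand: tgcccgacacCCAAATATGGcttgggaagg
*Actc1*, chr2:114052903-114052932, minus strand: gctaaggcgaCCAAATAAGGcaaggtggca
*Ldb3*, chr14:34588697-34588726, minus strand: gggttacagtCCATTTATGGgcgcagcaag
*Myl3*, chr9:110763583-110763612, plus strand: gagccaatgcCCTTTTATGGccctgtccct
*Myl7*, chr11:5898824-5898853, minus strand: ccattcctctCCTTATTTGGgcctctgggt
*Myom1*, chr17:71019448-71019477, plus strand: gccttcctggCCATAAAAGGctggctgtgg
*Nebl*, chr2:17462999-17463028, minus strand: gctcccatctCCTAAATTGGctggaaatgc

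A MEF2 box, the element of the myocyte enhancer factor 2 proteins, was in 6 of the 46 windows (13%) against 3.19% of all windows. It occurred in 5 genes, of which 4 are shown, and *Synpo2l* held it before 2 separate starts. The boxes are again in capitals, and overlaps with the other motifs were not excluded.
*Mybpc3*, chr2:91118044-91118073, plus strand: tggaatttgtCTATATTTAGcaggtggcta
*Synpo2l*, chr14:20664699-20664728, minus strand: tggctcaggtTTATTTTTAGccaggcagac
*Synpo2l*, chr14:20668444-20668473, minus strand: gaaatttgtaCTATAATTAGttctaggagt
*Ttn*, chr2:76982694-76982723, minus strand: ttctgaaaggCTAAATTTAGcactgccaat
*Xirp2*, chr2:67445918-67445947, plus strand: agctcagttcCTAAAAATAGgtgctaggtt

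The letters CATTCC, the core that TEAD factors bind in muscle promoters, were found on either strand in 14 of the 46 windows (30.4%) and in 14.7% of all windows. They occurred in 14 of the 34 genes with a window, most of which did not fall in KO. Sites are shown only for 3 of the 5 genes that fell (below), where the reverse strand reads GGAATG. The other genes that fell, *Pdlim5* and *Smyd1*, held none, and *Nebl* and *Mylk3* also have windows without the letters.
*Tpm1*, chr9:67049250-67049279, minus strand: gctgtcctaaGGAATGcggtcgcccccctg
*Nebl*, chr2:17670376-17670405, minus strand: agagaatctaCATTCCttcgtcagtgcatg
*Mylk3*, chr8:85365453-85365482, minus strand: ctcttaaagaGGAATGttaattgttaccat
The letters TATAAA, the core of a basal promoter element, were found in 17.4% of the windows of these genes against 13.6% of all. The same comparison for a zinc finger factor site, AGATAA, gave 17.4% against 11.2%. A match describes the letters and is not a measured binding site. Windows of 1 gene can overlap, so the shares count windows rather than genes.

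Of the 35 genes tested, 5 fell in KO and 0 rose at a false discovery rate (FDR) under 0.05. The 5 were *Tpm1*, *Nebl*, *Pdlim5*, *Smyd1* and *Mylk3*, and their decreases lay between 13.9% and 22.9% of the WT level. They make up 14.3% of the 35, where 8.62% of all 14451 genes changed, 3.50% by falling and 5.11% by rising. With an unadjusted p under 0.05 there were 10 lower genes (28.6%) and 2 higher ones (5.71%), where 11.9% and 13.1% of all genes were lower and higher. DESeq2 called 9 lower (25.7%) and 2 higher (5.71%), where it called 5.18% and 7.14% of all genes. The 4 KO values lay below all 4 WT values for 8 genes (22.9%), the 5 named and *Myh6*, *Cmya5* and *Unc45b*, where 9.45% of all genes showed this. For 0 genes did they lie above all WT values, where 9.52% of all genes did. Differences were small: the median log2 fold change was -0.08 over the 35 genes, with 22 of 35 below 0, and -0.00 over all genes tested. By role, 0 of 10 thick filament genes, 1 of 10 thin filament genes, 2 of 12 Z-disc genes and 2 of 3 assembly genes fell, and 3 thick filament genes were lower at an unadjusted p under 0.05. The median log2 fold changes were -0.08, -0.09, 0.05 and -0.33 in that order.

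**Figure D1:**
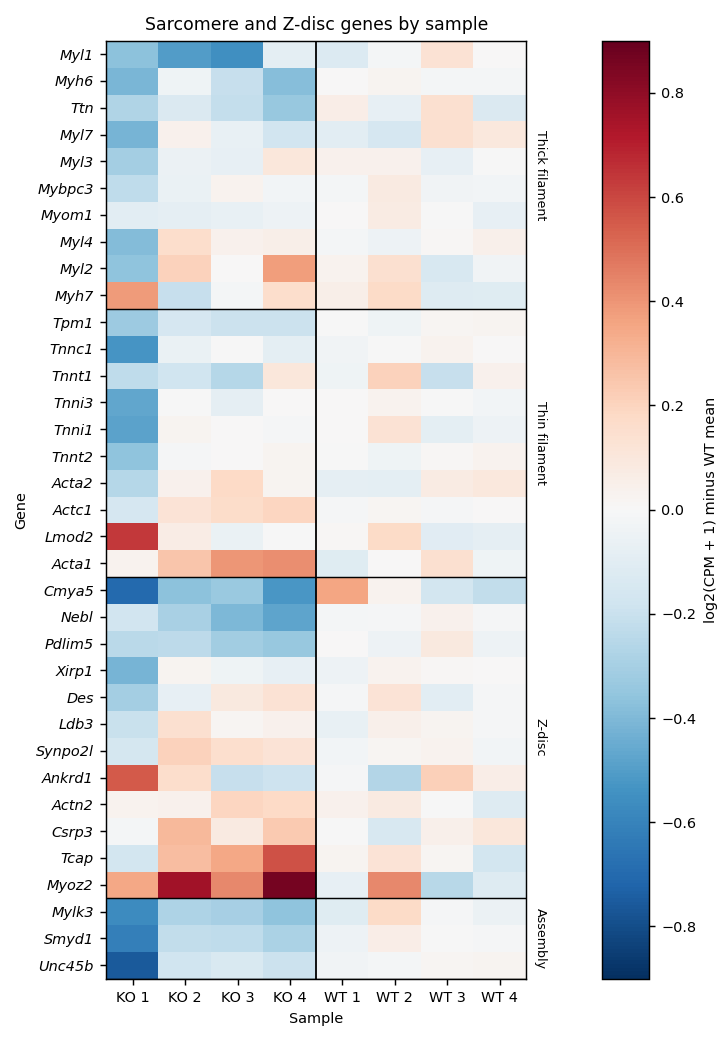
Level of 35 genes in each sample as log2(CPM + 1) minus the WT mean (colour scale), with genes in rows by role and ordered by log2 fold change, and KO and WT samples in columns. KO 1 was the lowest KO sample for 27 of 35 genes, and the 3 assembly genes at the foot were below the WT mean in every KO sample.

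The genes of the thick filament included the most abundant transcripts of the list by count, and none of them changed at the threshold. *Myh6* encodes the alpha myosin heavy chain, the faster cardiac motor. Its levels were 5200, 6740, 5990 and 5320 CPM in KO 1 to KO 4 and 6960, 7050, 6860 and 6850 CPM in WT 1 to WT 4. All KO values lay under all WT values, and the log2 fold change was -0.25 (standard error 0.08, adjusted p = 0.0796). *Myh7*, on the same strand of chromosome 14 beside it, encodes the slower beta chain. It had 11200, 7430, 8470 and 9560 CPM in KO and 8890, 9680, 7930 and 7960 in WT. KO 1 was the highest of all samples and KO 2 the lowest, so the groups overlapped (log2 fold change 0.09, standard error 0.12, adjusted p = 0.694, and -0.02 without KO 1). Of the 60-base windows of *Myh6* transcripts, 16.9% also occur in *Myh7*, and 13.1% of those of *Myh7* occur in *Myh6*, so some reads of this pair were divided between them by estimation.

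*Ttn*, on chromosome 2, encodes titin, the largest protein of the sarcomere and its molecular spring. It had 2190, 2420, 2280 and 2090 CPM in KO and 2760, 2510, 2930 and 2420 CPM in WT. Only KO 2 reached the lowest WT sample, and the log2 fold change was -0.24 (standard error 0.07, adjusted p = 0.0679). *Myl1* encodes an essential light chain best known from fast skeletal muscle. Its levels were 122, 111, 107 and 148 CPM in KO and 145, 156, 173 and 158 CPM in WT. KO 4 alone was inside the WT range, and the log2 fold change was -0.37 (standard error 0.10, adjusted p = 0.0547). A pseudogene shares 10.3% of the *Myl1* windows.

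The other light chains did not pass the test, and KO 1 set much of their spread. *Myl2*, the ventricular regulatory light chain, had 1650, 2450, 2130 and 2760 CPM in KO and 2170, 2350, 1920 and 2080 in WT. *Myl7*, the atrial regulatory light chain that the early ventricle also makes, had 1900, 2610, 2420 and 2250 CPM in KO and 2380, 2290, 2810 and 2710 in WT. *Myl3*, the ventricular essential light chain, had 1220, 1450, 1430 and 1620 CPM in KO and 1550, 1550, 1430 and 1500 in WT. KO 1 was the lowest of all 8 samples for these 3 genes. *Myl4*, the atrial and fetal essential light chain, had 1830, 2680, 2460 and 2490 CPM in KO and 2370, 2330, 2420 and 2480 in WT, again with KO 1 lowest. The log2 fold changes were 0.08 for *Myl2*, -0.15 for *Myl7*, -0.08 for *Myl3* and -0.02 for *Myl4*, with adjusted p between 0.397 and 0.918. Without KO 1 they were 0.20, -0.07, -0.01 and 0.08 in that order.

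The remaining thick filament genes anchor or regulate myosin. *Mybpc3*, cardiac myosin-binding protein C, ranged from 1830 to 2200 CPM in KO and from 2100 to 2270 in WT (log2 fold change -0.07, adjusted p = 0.538, and -0.02 without KO 1). *Myom1*, the myomesin of the embryonic M-band, had 775, 783, 789 and 802 CPM in KO and 830, 873, 825 and 786 in WT. Its KO samples were the most alike of any tested gene of this role, with an SD of 11.4 CPM, and the log2 fold change was -0.07 (95% confidence interval -0.18 to 0.03). *Myom2*, an M-band protein of mature muscle, was barely detected, with counts of 3, 8, 4 and 2 in KO and 10, 8, 7 and 4 in WT, and was not tested.

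In the thin filament, *Tpm1* fell and the actin genes did not. *Tpm1*, a gene of the minus strand at chr9:67022590-67049406 of GRCm38, encodes the alpha-tropomyosin that lies along actin and blocks myosin until calcium binds troponin. It had 2330, 2630, 2560 and 2550 CPM in KO and 2910, 2850, 2960 and 2970 CPM in WT. Every KO sample was under every WT sample, and the log2 fold change was -0.22 (standard error 0.05, 95% confidence interval -0.33 to -0.10, adjusted p = 0.0303). None of its 60-base windows occurs in another gene. The decrease kept this sign in all 16 alternative analyses and passed the threshold in 8 of them. With values scaled to the cardiomyocyte markers the log2 fold change was -0.21 and did not pass (adjusted p = 0.173).

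The 3 actins of the embryonic heart differed in level, and none of them passed the test. *Actc1*, the cardiac actin and per length the most abundant gene of the list in WT (5030 CPM per kilobase), had 7320, 8890, 9150 and 9300 CPM in KO and 8090, 8240, 8100 and 8150 in WT. KO 1 lay under all WT samples and the other 3 KO samples above them, with a log2 fold change of 0.09 (adjusted p = 0.496). *Acta1*, the skeletal actin, had 661, 770, 854 and 868 CPM in KO and 600, 650, 717 and 630 in WT. Only KO 1 was inside the WT range, and the log2 fold change was 0.28 (standard error 0.09, adjusted p = 0.0891). *Acta2*, the smooth muscle actin, had 2320, 2850, 3130 and 2820 CPM in KO and 2620, 2600, 2920 and 2960 in WT. The groups overlapped, both means were 2780 CPM, and the estimate had a 95% confidence interval of the log2 fold change from -0.20 to 0.20. Without KO 1 its log2 fold change was 0.08 (adjusted p = 0.379).

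In 4 of the 5 troponin genes a low KO 1 stood beside 3 KO samples close to WT. *Tnnt2*, cardiac troponin T, had 1830, 2340, 2360 and 2400 CPM in KO and 2350, 2300, 2370 and 2410 in WT. *Tnni1*, the slow skeletal troponin I of the fetal heart, had 851, 1210, 1190 and 1180 CPM in KO and 1190, 1300, 1120 and 1150 in WT. *Tnni3*, the adult cardiac troponin I, had 255, 352, 333 and 353 CPM in KO and 353, 361, 351 and 346 in WT. In each, KO 1 was the lowest sample by a wide gap. *Tnnc1*, the calcium-binding troponin C, ranged from 735 (KO 1) to 1060 CPM in KO and from 1040 to 1090 in WT. *Tnnt1*, the slow skeletal troponin T, was the exception, with 54, 56, 53 and 68.2 CPM in KO and 61.9, 73.6, 54.9 and 65.3 in WT, and KO 3 lowest. The log2 fold changes of the 5 troponin genes lay between -0.16 and -0.08, and their adjusted p between 0.356 and 0.601. Without KO 1 they were 0.01 for *Tnnt2*, 0.00 for *Tnni1*, -0.03 for *Tnni3*, -0.06 for *Tnnc1* and -0.12 for *Tnnt1*.

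*Lmod2*, leiomodin 2, which nucleates actin and sets thin filament length, showed the reverse. It had 102, 68.6, 62.6 and 65.4 CPM in KO and 65.8, 73.9, 60.9 and 61.8 in WT, so KO 1 was the highest sample and the others lay inside the WT range. The log2 fold change was 0.18 (standard error 0.15, adjusted p = 0.479) and -0.00 without KO 1.

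At the Z-disc, 2 genes fell, both of which encode proteins that bind alpha-actinin or actin. *Pdlim5*, a gene of the minus strand at chr3:142239590-142395696, encodes a PDZ and LIM domain protein that ties alpha-actinin to signalling enzymes. It had 374, 376, 356 and 350 CPM in KO and 444, 430, 470 and 429 CPM in WT. The groups were far apart, with means of 364 ± 12.8 CPM in KO and 443 ± 19.2 in WT (SD, n = 4). The log2 fold change was -0.28 with a standard error of 0.05, and the adjusted p was the smallest of the list (0.00958). It passed the threshold in 15 of the 16 alternatives and lost it with values scaled to the cardiomyocyte markers (-0.28, adjusted p = 0.0892).

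*Nebl*, a gene of the minus strand at chr2:17343909-17731464, encodes nebulette, a cardiac relative of nebulin that links thin filaments to the Z-disc. It had 748, 690, 639 and 608 CPM in KO and 835, 837, 869 and 839 CPM in WT. No KO sample reached the WT range, and KO 1 was the nearest to it, unlike most of the genes listed. The log2 fold change was -0.33 (standard error 0.07, adjusted p = 0.0146) with all samples and -0.39 (standard error 0.05, adjusted p = 6.9e-04) without KO 1. It passed in 14 of the 16 alternatives, and was at -0.32 (adjusted p = 0.078) when values were scaled to the cardiomyocyte markers. The gene has 4 annotated RefSeq starts, and counts per gene do not separate its isoforms.

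*Cmya5* and *Myoz2* had the largest differences of the list in opposite directions, at low levels, and neither passed. *Cmya5*, myospryn, which binds desmin and alpha-actinin, had counts of 154, 230, 238 and 181 in KO and 369, 312, 236 and 275 in WT. In CPM the KO values were 13.1, 16.7, 17.1 and 14.9 and the WT values 28.2, 22.4, 19.4 and 18.6, without overlap, and the log2 fold change was -0.52 (standard error 0.14, adjusted p = 0.0546). An annotated gene on the opposite strand covers 18.7% of its 60-base windows, and whether the counting used strand is not given in the sources used here. Opposite-strand genes also cover 6.5% of the windows of *Unc45b*, 6.37% of those of *Myh7* and 4.34% of those of *Des*. *Myoz2*, calsarcin 1, which tethers calcineurin to the Z-disc, had 17.5, 23.5, 18.6 and 25.4 CPM in KO and 12.8, 18.6, 11.2 and 12.4 in WT. WT 2 alone reached the KO range, and the log2 fold change was 0.63 (standard error 0.18, 95% confidence interval 0.23 to 1.02, adjusted p = 0.0568).

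The Xin repeat proteins bind actin where the myofibril meets the cell edge. *Xirp1* had 201, 273, 262 and 256 CPM in KO and 260, 275, 271 and 270 in WT, with KO 1 far below the rest (log2 fold change -0.12, adjusted p = 0.445, and -0.03 without KO 1). *Xirp2* was near the limit of detection, with counts of 15, 6, 7 and 13 in KO and 13, 10, 8 and 9 in WT, and was not tested.

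The other 7 Z-disc genes did not pass, and 5 of them had a log2 fold change of 0.09 or more. *Actn2*, the alpha-actinin that crosslinks thin filaments, ranged from 958 to 1070 CPM in KO and from 864 to 993 in WT (log2 fold change 0.11, adjusted p = 0.298). *Csrp3*, the muscle LIM protein, ranged from 437 to 542 CPM in KO and from 399 to 475 in WT (0.15, adjusted p = 0.277). *Tcap*, telethonin, the cap of titin's end, ranged from 38.6 to 65.1 CPM in KO and from 38.7 to 47.4 in WT (0.28, adjusted p = 0.234). In *Tcap* the 3 KO samples other than KO 1 lay above every WT sample. Its log2 fold change ran from 0.17 to 0.41 (without KO 1) when 1 sample was left out at a time. *Ankrd1*, a stretch-responsive ankyrin repeat protein, ranged from 401 to 680 CPM in KO and from 386 to 538 in WT, with KO 1 highest (0.10, adjusted p = 0.742, and -0.08 without KO 1). *Synpo2l* ranged from 397 to 512 CPM in KO and from 436 to 453 in WT (0.09, adjusted p = 0.526). *Ldb3*, the PDZ and LIM protein cypher, ranged from 334 to 423 CPM in KO and from 366 to 396 in WT. *Des*, desmin, the intermediate filament that links Z-discs, ranged from 653 to 883 CPM in KO and from 757 to 879 in WT. For *Ldb3* and *Des* the means differed by 0.332% and -2.3% of the WT level, and the groups overlapped. Without KO 1 their log2 fold changes were 0.07 and 0.05.

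The assembly genes were the only role in which every gene lay below WT in every KO sample. *Smyd1*, a gene of the minus strand at chr6:71213940-71322233, encodes a muscle methyltransferase that binds myosin during folding and is needed for myofibril formation. It had 413, 545, 542 and 521 CPM in KO and 614, 663, 632 and 630 CPM in WT, with no overlap. The log2 fold change was -0.33 (standard error 0.08, adjusted p = 0.0401), and -0.24 without KO 1 (standard error 0.04, adjusted p = 0.00313). *Mylk3*, a gene of the minus strand at chr8:85324303-85386345, encodes the cardiac myosin light chain kinase that phosphorylates the regulatory light chain. It had 197, 240, 237 and 226 CPM in KO and 270, 328, 290 and 281 CPM in WT. Its decrease was the largest of the 5 by percent, 22.9%, or -0.38 as log2 fold change (standard error 0.08, adjusted p = 0.0208). It was the only one of the 5 that also passed when values were scaled to the cardiomyocyte markers (-0.37, adjusted p = 0.0318), where *Smyd1* was at -0.32 (adjusted p = 0.0705). *Unc45b*, the chaperone that folds the myosin motor domain, had 318, 473, 487 and 469 CPM in KO and 526, 531, 543 and 546 CPM in WT. All KO values were lower, yet the low KO 1 widened the spread to an SD of 79.7 CPM against 9.4 in WT, and the log2 fold change of -0.30 did not pass (standard error 0.12, adjusted p = 0.151).

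**Figure D2:**
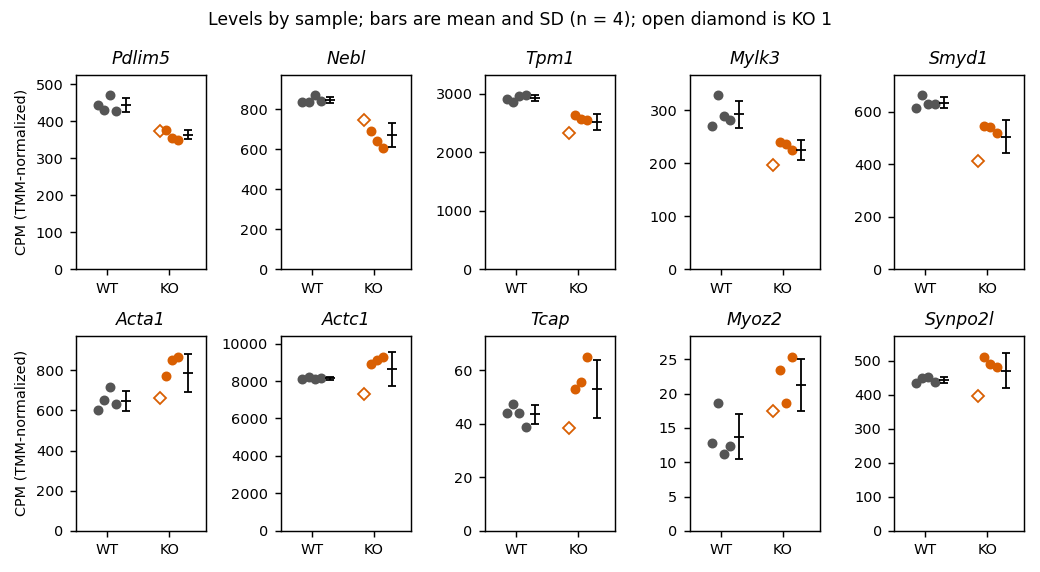
Levels of 10 genes in TMM-normalized CPM (vertical axes, from 0) in each WT and KO sample, with the mean and SD of 4 samples beside the points and KO 1 as an open diamond. The upper row shows the 5 genes that fell, in which all KO samples lay under all WT samples, and the lower row the 5 genes that passed the threshold as higher when KO 1 was left out.

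KO 1 shaped the result for the list as a whole. It lay below every WT sample for 28 of the 35 genes, where KO 2, KO 3 and KO 4 did so for 13, 12 and 12. Its median deviation from the WT mean over the 35 genes was -0.28 on the log2 scale, against -0.04 to -0.00 in the other KO samples, while over all genes tested the 4 KO samples lay between -0.01 and 0.00. The 37 genes took 4.68% of all counts in KO 1, 5.56%, 5.41% and 5.47% in KO 2 to KO 4, and 5.7% to 5.81% in WT. KO 1 also had the highest share of hemoglobin. The thin filament genes took 1.53% in KO 1, 2.01% to 2.03% in the other KO samples and 1.98% to 2.04% in WT. Assembly genes took 0.0865% in KO 1, 0.119% to 0.127% in the other KO samples and 0.145% to 0.155% in WT, so that group stood lower with or without KO 1.

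Leaving out KO 1 raised the number of changed sarcomere genes from 5 to 13 and divided them by direction. The number of changed genes among all genes rose at the same time, from 1245 to 2523, or 17.2% of the 14630 tested in that fit, against 37.1% of the 35. The 5 genes that fell with all samples fell again, and *Myl1* (-0.37, adjusted p = 0.0388), *Ttn* (-0.23, adjusted p = 0.0491) and *Unc45b* (-0.17, adjusted p = 0.0107) joined them, so 8 of 35 fell (22.9%) where 7.89% of all genes did. Another 5 genes (14.3%) rose, where 9.35% of all genes did. These were the actins *Actc1* (0.16, adjusted p = 0.00794) and *Acta1* (0.36, adjusted p = 0.00489) and the Z-disc genes *Tcap* (0.41, adjusted p = 0.00965), *Myoz2* (0.70, adjusted p = 0.0184) and *Synpo2l* (0.16, adjusted p = 0.018). The median over the 35 genes moved to -0.02. *Myh6* kept its sign (-0.20, adjusted p = 0.0575), as did *Cmya5* (-0.44, adjusted p = 0.0521), and *Myl2* was at 0.20 (adjusted p = 0.137). The sign of *Myh7*, *Myl4*, *Tnnt2*, *Tnni1*, *Lmod2*, *Ankrd1* and *Des* turned without KO 1, with none of them past the threshold.

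**Figure D3:**
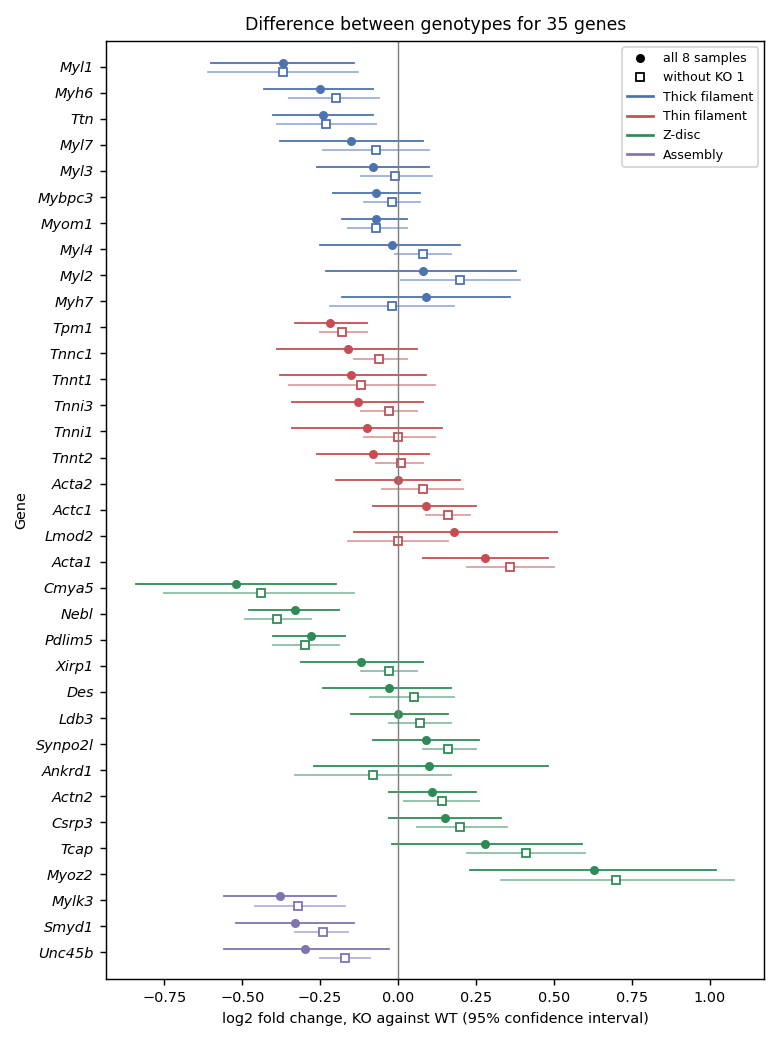
Log2 fold change of KO against WT for 35 genes with its 95% confidence interval (horizontal axis), coloured by role, from all 8 samples (filled circles) and without KO 1 (open squares). The intervals of the 5 genes that fell lie below 0 in both fits, and those of *Actc1*, *Tcap*, *Synpo2l*, *Actn2*, *Csrp3* and *Myl2* exclude 0 without KO 1 but not with all samples.

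Ratios of paralogs within a sample ask whether the balance of alpha and beta, fetal and adult or chamber isoforms differed between genotypes, and need no scaling for depth. Ratios are given per length of the gene's exons, and 10 of them were tested with two-sided exact permutation tests over 70 relabellings, for which the smallest possible p is 0.0286. After adjustment a ratio could pass only if 6 or more of the 10 reached that minimum, so a difference in a few ratios could not have passed. None passed (0 of 10 with an adjusted p under 0.05), and the groups overlapped for all 10. The ratio of *Myh6* to *Myh7* was 0.593, 1.16, 0.906 and 0.713 in KO 1 to KO 4 and 1, 0.932, 1.11 and 1.1 in WT 1 to WT 4. Alpha and beta chains were close to equal per length in WT, given the joined exon lengths, whereas the KO samples spread from the lowest ratio, in KO 1, to the highest, in KO 2. By counts *Myh7* was ahead in every sample (log2 ratios of counts -0.46 to -0.21 in WT). The log2 difference was -0.34 (standard error 0.22, exact permutation p = 0.229, adjusted p = 0.476) and -0.19 without KO 1 (exact permutation p = 0.4).

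*Acta1* to *Actc1*, the skeletal over the cardiac actin, gave the smallest p of the 10. The ratio was 0.0951, 0.0913, 0.0983 and 0.0983 in KO and 0.0782, 0.0831, 0.0932 and 0.0814 in WT. All 4 KO samples were above the WT mean of 0.084 and only WT 3 reached into the KO range, a log2 difference of 0.19 (standard error 0.06, exact permutation p = 0.0571, adjusted p = 0.429). The ratio of *Acta2* to *Actc1* was 0.236 ± 0.0119 in KO and 0.251 ± 0.0182 in WT (SD, n = 4, exact permutation p = 0.229). KO 1 was neither the lowest nor the highest KO sample for either actin ratio, although its level of each actin was the lowest of its group.

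The light chain ratios overlapped between genotypes too. *Myl7* to *Myl2*, the atrial over the ventricular regulatory light chain, was 3.81, 3.51, 3.75 and 2.7 in KO and 3.63, 3.21, 4.84 and 4.31 in WT (log2 difference -0.21, exact permutation p = 0.286). With 1 sample left out at a time the log2 difference ran from -0.31 to -0.1. The atrial form was the more abundant per length in every sample, given the joined exon lengths, whereas by counts *Myl2* was ahead in KO 4 and WT 2 (log2 ratios of counts -0.29 and -0.04). *Myl1* to *Myl3* was 0.0992, 0.0757, 0.0739 and 0.0901 in KO and 0.092, 0.0989, 0.12 and 0.104 in WT. All 4 KO samples were below the WT mean (log2 difference -0.29, standard error 0.13, exact permutation p = 0.0857, adjusted p = 0.429). *Myl4* to *Myl3* was 0.728 ± 0.0708 in KO and 0.704 ± 0.042 in WT (SD, n = 4, exact permutation p = 0.486). By counts *Myl4* was instead ahead in every sample (log2 ratios of counts 0.59 to 0.88).

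The troponin ratios overlapped as well. *Tnni3* to *Tnni1*, the adult over the fetal inhibitory subunit, was 0.523, 0.509, 0.489 and 0.52 in KO and 0.518, 0.484, 0.549 and 0.525 in WT, so the fetal form was about as far above the adult one in every sample. The log2 difference was -0.02 with a standard error of 0.04 (exact permutation p = 0.629). *Tnnt1* to *Tnnt2* was 0.0918 ± 0.0121 in KO and 0.0955 ± 0.0129 in WT (SD, n = 4, exact permutation p = 0.686). The ratios of *Myom2* to *Myom1* (log2 difference -0.65, standard error 0.44, exact permutation p = 0.257) and of *Xirp2* to *Xirp1* (0.15, standard error 0.48, exact permutation p = 0.8) rest on at most 15 counts of the rarer gene per sample. At that depth no difference was detectable.

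**Figure D4:**
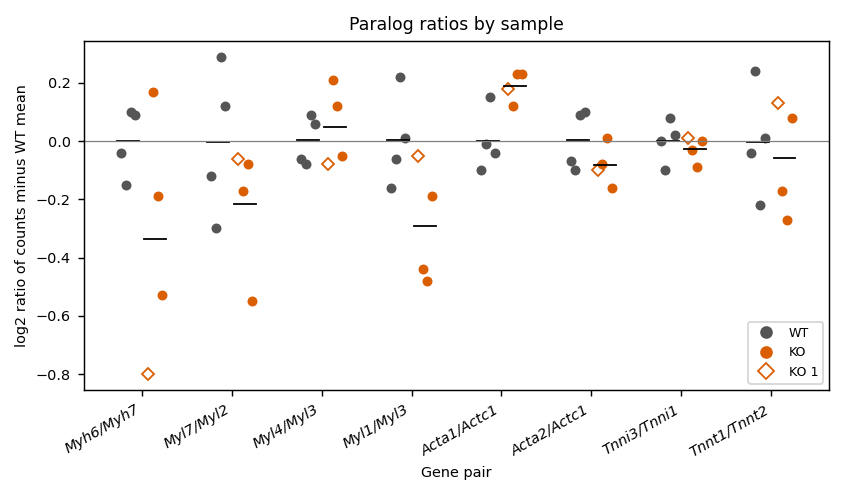
Log2 ratio of counts for 8 gene pairs in each sample minus the WT mean of that pair (vertical axis), with WT in grey, KO in orange, KO 1 as an open diamond and group means as lines. WT and KO samples overlap in every pair, and the KO samples of *Myh6* to *Myh7* span from below all WT samples to above them.

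Per length, WT levels of the listed genes spanned from *Actc1* (5030 CPM per kilobase) and *Myl7* (4320) down to *Cmya5* (1.87), *Xirp2* (0.0621) and *Myom2* (0.0616). *Acta2*, *Myl2*, *Myh6*, *Tnnc1* and *Myh7* followed *Myl7* at 1260, 1090, 1030, 1020 and 1000 CPM per kilobase, differences among neighbours that lie within the spread of WT samples for *Myl2*, *Myh6*, *Tnnc1* and *Myh7*. The 5 genes that fell were of middle level, with *Tpm1* at 451, *Smyd1* at 140, *Mylk3* at 68.2, *Nebl* at 55.4 and *Pdlim5* at 49.9. These lengths join all annotated exons of a gene, so long genes with many alternative exons, such as *Ttn* (22.7), read low.

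Other genes of the same structures were counted in the same way. Of 61 tested, 5 fell (8.2%, where 3.50% of all genes fell and 8.62% changed) and 0 rose in edgeR, and their median log2 fold change was -0.02. At an unadjusted p under 0.05, 17 were lower and 6 higher, where 11.9% and 13.1% of all genes were. Without KO 1, 16 of 61 changed (26.2%, where 17.2% of all genes did), 11 lower (18%, where 7.89% of all genes were) and 5 higher (9.35% of all genes). Among thick filament genes 1 of 7 fell, *Mybphl*, a relative of myosin-binding protein C (34.5 to 37.7 CPM in WT and 24.2 to 31.6 in KO, log2 fold change -0.38, adjusted p = 0.0262). Among thin filament genes 1 of 12 fell, the tropomyosin *Tpm4* (358 to 397 CPM in WT and 292 to 338 in KO, -0.29, adjusted p = 0.0169). The other tropomyosin genes of that list did not pass, with log2 fold changes of -0.10 for *Tpm2* (adjusted p = 0.637) and -0.22 for *Tpm3* (adjusted p = 0.275). Among Z-disc genes 3 of 27 fell. These were *Myoz1* (-0.57, adjusted p = 0.0177), a sister of *Myoz2*, *Fhod3* (-0.22, adjusted p = 0.0233), a formin of cardiac sarcomeres, and *Csrp2* (-0.41, adjusted p = 0.0357), a relative of *Csrp3*. *Myoz1* had 9.84 to 13.7 CPM in KO and 17.5 to 20 in WT, the reverse of the order seen in *Myoz2*. Of 15 further assembly genes 0 changed (4 lower and 1 higher at an unadjusted p under 0.05, where 11.9% and 13.1% of all genes were). Without KO 1, 3 of them fell and 1 rose, where 7.89% and 9.35% of all genes did. Of 9 non-muscle paralogs 1 rose, the regulatory light chain *Myl12a* (0.17, adjusted p = 0.0387), where 5.11% of all genes rose, and without KO 1 *Myl9* joined it (0.12, adjusted p = 0.0452).

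Of 16 regulators of sarcomere genes, 4 fell (25%, where 3.50% of all genes fell) and 0 rose in edgeR. At an unadjusted p under 0.05, 6 were lower and 2 higher, where 11.9% and 13.1% of all genes were. Without KO 1 there were 5 that fell, *Mef2a* (-0.25, adjusted p = 0.00762) being the added one, and 3 that rose, where 7.89% and 9.35% of all genes did. The 3 were *Srf*, serum response factor itself (0.22, adjusted p = 0.0147), its coactivator *Mrtfa* (0.41, adjusted p = 0.00286) and the cardiac homeobox gene *Nkx2-5* (0.22, adjusted p = 0.0149). *Mef2c*, which binds MEF2 boxes, had 119, 114, 112 and 99.9 CPM in KO and 144, 149, 162 and 141 in WT (-0.42, standard error 0.07, adjusted p = 0.00718). *Myocd*, the myocardin coactivator of serum response factor, had 72.4, 86.1, 86.2 and 73.4 CPM in KO and 97.2, 103, 106 and 91.7 in WT (-0.32, standard error 0.08, adjusted p = 0.0357). *Myocd* is also the smooth muscle marker that fell. Both were lower in every KO sample. *Tbx20*, a T-box factor of the myocardium, fell by 0.31 on the log2 scale (adjusted p = 0.0165). *Hand1*, a factor of the outflow tract and outer left ventricle, fell by 0.62 (adjusted p = 0.0169) and is also 1 of the 4 outflow markers that fell.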

How the data were processed

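RNA of embryonic ventricles was purified with a PicoPure kit, and NEBNext Ultra libraries of polyadenylated RNA were sequenced as 60-base single reads. The authors deposited expected counts per gene, estimated by RSEM 1.3.1 on GRCm38 after cutadapt trimming per the submitters' processing notes, without scaling for depth or length. The aligner and any use of strand are not given in the sources used here. RSEM divides reads that match several genes, which affects near-identical copies.

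Expected counts were rounded to whole numbers and symbols matched for 53274 of 53465 gene identifiers through a table of gene names. Groups were taken from the labels. KO was tested against WT in all 8 samples with edgeR 4.0.16 in R 4.3.3 (TMM, filterByExpr, quasi-likelihood test, Benjamini-Hochberg adjustment over 14451 genes, FDR threshold 0.05). A gene is called changed only past that threshold. Standard errors are the log2 fold change over the square root of F, with 95% confidence intervals from the same fit, and CPM values are TMM-normalized. The test was checked on simulated counts. Paralog ratios used counts plus 0.5, exact permutation tests and Benjamini-Hochberg adjustment over 10 ratios. Lengths are joined exons of GENCODE M21 on GRCm38, and 60-base windows of those transcripts gave the shared reads. CArG and MEF2 boxes and 3 short motifs were searched on both strands of RefSeq promoter windows with Python 3.11.15, and 1 site is not reported here. No pair of samples was alike to within counting error, so each counted as 1.

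The sarcomere genes, the other lists and the motifs were chosen with earlier results of these data known. Values per sample are printed for genes that passed, the 3 largest log2 fold changes of each role and the genes of each ratio, with other genes by range. From each other list at most 4 genes past the threshold are named, by smallest adjusted p. KO 1 was singled out after its values were seen. Recomputed were *Nrg1*, each sarcomere gene tested, and the numbers of changed genes among all genes, the sarcomere genes and the other sarcomere genes. The settings were upper-quartile normalization, DESeq2 1.42.0, limma-voom (limma 3.58.1), and no filter or at least 10 counts in every sample. Other fits removed hemoglobin and mitochondrial genes or scaled values to the 12 cardiomyocyte markers. The replicate number was also used as a block, and each sample was left out in turn. Ratios were recomputed with the block, a prior count of 2 and each sample left out. Markers, regulators and non-muscle paralogs were read only with all samples and without KO 1.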

Additional observations from a re-analysis of the deposited data

Results flagged for a closer look

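Within each genotype, the CPM of the 35 genes tested and of *Nrg1* and the 10 paralog ratios were examined for 1 sample far from the other 3, by the gap to the nearest sample divided by the range of the group. The gap passed Dixon's 95% critical value in 7 of 92 groups, where chance gives about 4.6. KO 1 was that sample in 5 of the 7, as the lowest each time. Genes of 1 sample are not independent. These were the troponin genes *Tnnt2* (0.907), *Tnni1* (0.929) and *Tnnc1* (0.841) and the assembly genes *Smyd1* (0.838) and *Unc45b* (0.912). In WT the highest sample stood apart for *Mybpc3* (0.878, WT 2) and for *Nebl* (0.88, WT 3). The hemoglobin share was also highest in KO 1, and its part in these values was not tested.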

How the results depend on the processing

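*Nrg1* kept its direction and passed in all 16 settings run. The paralog ratios could hardly pass by design. Of the 10, 6 kept their direction in the settings run for them. Leaving out 1 sample gave log2 differences of -0.01 to 0.09 for *Myl4* to *Myl3*, -0.06 to 0.00 for *Tnni3* to *Tnni1*, -0.13 to 0.03 for *Tnnt1* to *Tnnt2* and -0.2 (without KO 1) to 0.44 for *Xirp2* to *Xirp1*, which crossed 0. For changed genes, the number of all genes (1245, 8.62%) was 658 (4.55%) with scaling to cardiomyocyte markers and 1780 (12.3%) with DESeq2, and leaving out 1 sample gave 509 (3.48%) to 2523 (17.2%, without KO 1). Of the 35 sarcomere genes, where 5 had passed, 11 passed with DESeq2, 8 without a filter (of 37 then tested, where 4.07% of all 28458 genes passed) and 2 (*Myoz2* higher, *Mylk3* lower) with scaling to cardiomyocyte markers, and leaving out 1 sample gave 1 (without WT 3) to 13 (without KO 1). For the other sarcomere genes (5 of 61), 13 passed with DESeq2 and 1 with that scaling, and leaving out 1 sample gave 0 to 16 (without KO 1). DESeq2 added *Myh6*, *Myl1*, *Ttn*, *Acta1*, *Cmya5* and *Myoz2*. The cause was not tested. *Tpm1* and *Smyd1* did not pass in 6 of the 8 fits without 1 sample each and *Mylk3* in 4. *Nebl* did not pass without WT 3.

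A fit with a replicate block called 616 genes (4.26% of all tested), 5 of the 35 sarcomere genes and 2 of the 61 other sarcomere genes. *Tpm1* was at -0.22 and no longer passed (adjusted p = 0.0874 from edgeR) and *Myoz2* did. The numbers do not pair the samples: same-numbered samples correlated between -0.110 and 0.031, and 0 of 4 KO and 0 of 4 WT samples correlated best with their own number.

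Signs turned in genes close to 0. *Acta2* was at -0.0026 with limma-voom, -0.014 with upper-quartile normalization and -0.0027 with the block, and *Ldb3* at -0.011 with upper-quartile normalization. Across the fits that each left out 1 sample, log2 fold changes spanned -0.022 to 0.19 for *Myh7*, -0.034 to 0.2 for *Myl2*, -0.079 to 0.082 for *Myl4*, -0.058 to 0.081 for *Acta2*, -0.12 to 0.0052 for *Tnnt2*, -0.14 to 0.0049 for *Tnni1*, -0.002 to 0.26 for *Lmod2*, -0.035 to 0.067 for *Ldb3*, -0.077 to 0.2 for *Ankrd1* and -0.09 to 0.048 for *Des*.

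With 4 samples a group the 95% confidence intervals of most members span more than their log2 fold change. Counts of *Myom2* and *Xirp2* are too few for a statement on either.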
